A study of Mus musculus with 24 samples.

Results

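The 10 genes described here act in the removal of histones and the remodelling of chromatin during spermatid maturation: *Rnf8*, *Rnf168*, *Mdc1*, *Ube2b*, *Ubr2*, *Psme4*, *Psma8*, *Chd5*, *Phf7* and *Tssk6*. They were taken by symbol, and each was found among the 24456 genes listed for every library. All 10 were among the 17170 genes that passed the low-count filter. Testes of wild-type (WT) mice and of mice homozygous for an *Atad2* knockout (KO) allele were taken on postnatal days 20, 22, 24 and 26, and their RNA was sequenced. Days 20 and 22 had 4 libraries of each genotype and days 24 and 26 had 2 of each, 24 libraries in all. They are named by genotype, day and replicate number, as in WT_d20_2. The KO allele carries a *lacZ* gene trap that fuses the first exons of *Atad2* to beta-galactosidase. A ubiquitous *CMV-Cre* cross removed its *neo* cassette and a downstream exon, so the germ cells and the somatic cells of the testis all carry the same allele. The fused transcript keeps part of *Atad2*, so its exons can still be counted in KO.

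When round spermatids elongate, most of their histones are removed and replaced first by transition proteins and then by protamines. Ubiquitin is attached to histones before they are lost, the histones are acetylated, and proteasomes of a testis form degrade acetylated histones. RNF8 and RNF168 are ubiquitin ligases best known from the DNA damage response, in which the scaffold MDC1 brings RNF8 to damaged chromatin, and in spermatocytes MDC1 and RNF8 act on the silenced sex chromosomes. Between days 20 and 26 the first wave of germ cells passes from pachytene spermatocytes to round and then elongating spermatids. The study's methods describe RNA from harvested testes, while the extraction note in the labels speaks of a purified spermatogenic fraction, so which material was sequenced is not certain. In RNA from a tissue, fewer cells of a type and less RNA per cell cannot be told apart.

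*Atad2* itself was lower in every KO library (30.8 to 53.0 CPM, the counts of a gene relative to the TMM-scaled total of its library) than in any WT library (76.1 to 171 CPM), so no library went against its genotype label. Its decrease passed the edgeR test at days 20, 22 and 24 and missed it at day 26, where the log2 fold change was -1.25 with an SE of 0.26 (adjusted p = 0.0628). Between 10709667 and 19491935 counts were assigned to genes per library. The library WT_d20_2 was the shallowest and stood apart, with 3.26% of its counts in mitochondrial ribosomal RNA against 0.170% to 1.06% in the others. All 8 Sertoli cell markers and all 6 Leydig cell markers of the lists used were detected in every group, beside the germ cell markers. Epididymal markers reached 716 CPM in some libraries of the series and were at 0 in others. A stage score was computed for each library as the mean centred log2 CPM of 6 round spermatid markers minus that of 6 pachytene markers. Its group means rose from -3.51 in WT and -1.08 in KO at day 20 to -0.26 and 0.76 at day 22. They were 1.79 and 1.80 at day 24, and 2.44 and 2.15 at day 26.

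The course of the genes through the wave was examined first. From day 20 to day 26, 7 of the 10 passed the edgeR quasi-likelihood test in WT at an adjusted p under 0.05, 5 of them higher and 2 lower. Of all genes 42.5% passed, 24.4% higher and 18.1% lower. In KO 6 of the 10 passed, 5 higher and 1 lower, beside 52.2% of all genes, 27.2% higher and 24.9% lower. *Tssk6*, *Chd5*, *Psme4*, *Phf7* and *Rnf168* rose in both genotypes and *Ubr2* fell in both, while *Rnf8* fell in WT. *Mdc1*, *Psma8* and *Ube2b* passed in neither. The median log2 fold change of the 10 was 0.24 in WT and 0.27 in KO, beside -0.04 and -0.07 over all genes. The libraries of day 20 and day 26 did not overlap for 6 of the genes in WT and 7 in KO, shares to be read beside the 50.4% and 70.0% of all genes that did not overlap.

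The stretch around the transcription start of the 4 genes that rose most is shown because each passed the test for a rise over the wave in both genotypes. Each sequence runs from 250 bases before to 50 bases after the start, as in the RefSeq table of build GRCm38.p6, and is written 5′ to 3′ on the strand of the gene. Capitals mark matches, on either strand, to TGACGT, the core of the cAMP response element (CRE), and to GTTGCC, a motif of RFX factors.
*Tssk6*, chr8:69901934-69902233, plus strand: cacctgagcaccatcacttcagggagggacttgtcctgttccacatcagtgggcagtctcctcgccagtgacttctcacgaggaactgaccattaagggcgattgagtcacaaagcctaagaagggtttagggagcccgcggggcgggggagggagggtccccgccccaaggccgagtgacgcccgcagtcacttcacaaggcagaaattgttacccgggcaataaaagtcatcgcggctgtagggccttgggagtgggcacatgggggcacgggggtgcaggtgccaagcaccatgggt
*Chd5*, chr4:152338401-152338700, plus strand: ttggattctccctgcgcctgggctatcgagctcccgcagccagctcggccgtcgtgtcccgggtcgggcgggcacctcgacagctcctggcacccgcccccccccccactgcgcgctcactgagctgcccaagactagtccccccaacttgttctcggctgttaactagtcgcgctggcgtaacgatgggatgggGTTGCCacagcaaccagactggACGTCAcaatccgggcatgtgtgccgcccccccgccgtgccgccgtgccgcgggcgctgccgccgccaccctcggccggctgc
*Phf7*, chr14:31251266-31251565, minus strand: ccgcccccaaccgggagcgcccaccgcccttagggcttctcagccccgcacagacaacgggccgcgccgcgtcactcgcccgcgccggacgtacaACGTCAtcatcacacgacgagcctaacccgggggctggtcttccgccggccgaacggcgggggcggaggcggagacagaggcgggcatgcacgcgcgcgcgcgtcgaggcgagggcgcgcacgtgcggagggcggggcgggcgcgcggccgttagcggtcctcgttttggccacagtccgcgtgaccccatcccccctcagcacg
*Psme4*, chr11:30771525-30771824, plus strand: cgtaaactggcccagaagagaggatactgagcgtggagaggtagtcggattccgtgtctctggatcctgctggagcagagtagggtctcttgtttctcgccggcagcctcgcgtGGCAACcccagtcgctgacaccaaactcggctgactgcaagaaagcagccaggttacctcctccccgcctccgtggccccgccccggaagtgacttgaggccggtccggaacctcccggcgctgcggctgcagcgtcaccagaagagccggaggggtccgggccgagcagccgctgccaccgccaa
*Chd5* holds both motifs, the RFX motif from position -55 and the CRE core from position -33, counted from the start. *Phf7* holds a CRE core from position -155, *Psme4* an RFX motif from position -136, and the *Tssk6* window holds neither. Of 32851 promoter windows of the same length in the table, 7.51% held the CRE core and 12.5% the RFX motif. The whole CRE, TGACGTCA, which contains the core, was in 1.79% of the windows and in none of these 4. Among the other genes it was found in *Ube2b*, from position -1 of its first listed start. The second listed start of *Ube2b* had an RFX motif from position -116 and a CRE core from position 24, and *Mdc1* held the CRE core from position -110. A MYB motif, AACNGTC, was in 8.01% of the windows and in no window of the 9 genes that the table holds. None of the 4 motifs was found in the windows of *Rnf8*, *Rnf168* or *Ubr2*. No promoter of *Psma8* is shown.

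*Tssk6* encodes a testis-specific serine kinase of spermatids that phosphorylates histone H2AX and is needed for the exchange of histones for protamines. It is a single-exon gene at chr8:69902184-69903518 on mm10, plus strand. At day 20 it was barely detected, with 4, 2, 8 and 4 counts in the WT libraries and 4, 8, 5 and 20 in the KO libraries. At day 22 the WT libraries held 7, 4, 8 and 11 counts (0.493, 0.334, 0.466 and 0.563 CPM). The KO libraries of day 22 held 12, 94, 35 and 13 counts (0.726, 5.65, 2.31 and 0.872 CPM). Every KO library of day 22 was thus above every WT library, with KO_d22_2 and KO_d22_3 well above the other two. At day 24 the level was 3.16 and 4.76 CPM in WT and 17.9 and 9.28 CPM in KO, again without overlap. At day 26 it was 38.5 and 21.7 CPM in WT and 46.1 and 36.1 CPM in KO, where the ranges overlapped. The rise from day 20 to day 26 was the largest of the 10 genes, with a log2 fold change of 6.46 ± 0.64 (SE, edgeR adjusted p = 2.18e-07) in WT and 6.02 ± 0.58 (adjusted p = 5.14e-07) in KO. The gene passed the filter through its later days, and the day 20 values behind these folds rest on few counts.

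*Chd5* encodes a chromodomain helicase of the nucleosome remodelling and deacetylase family that acts in spermatids during histone eviction. It lies at chr4:152338651-152390194, plus strand. At day 20 its level was 10.1, 4.53, 10.5 and 10.7 CPM in the WT libraries. The KO libraries of day 20 had 12.1, 7.78, 27.1 and 39.7 CPM. Thus 3 KO libraries were above all WT libraries, KO_d20_3 and KO_d20_4 by the most, and KO_d20_2 was below 3 of the WT libraries. At day 22 the WT libraries had 37.5, 21.7, 28.8 and 27.1 CPM and the KO libraries 30.0, 119, 68.9 and 38.2 CPM, with KO_d22_2 the highest. At day 24 the values were 157 and 107 CPM in WT and 155 and 132 CPM in KO. At day 26 all 4 libraries lay within 256 to 262 CPM. The rise over the wave was 4.82 ± 0.54 (log2, SE, edgeR adjusted p = 8.505e-07) in WT, a 28.2-fold difference, and 3.59 ± 0.51 (adjusted p = 2.05e-05) in KO, 12.0-fold. Without WT_d20_2, the lowest library, the rise in WT was 4.57 (adjusted p = 1.66e-05). Its close relatives *Chd3* and *Chd4* did not pass in either genotype, with log2 fold changes of -0.10 and 0.21 in WT. Per kilobase of exon, *Chd5* was at 0.0219 ± 0.0027 (SD, n = 4) of the level of *Chd4* in WT at day 20 and at 0.549 ± 0.015 (SD, n = 2) at day 26. The ratio was 0.0511 ± 0.029 in KO at day 20 and 0.533 ± 0.0051 at day 26.

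**Figure D1:**
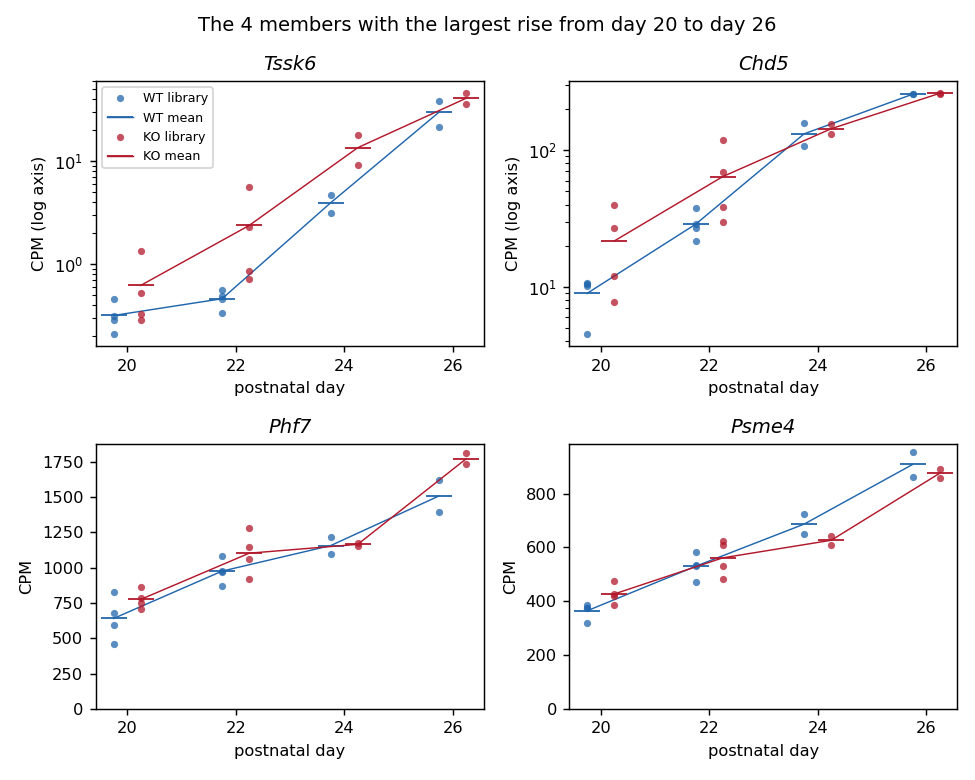
Levels of Tssk6, Chd5, Phf7 and Psme4 in CPM (Tssk6 and Chd5 on log axes) against postnatal day. Points are single libraries, horizontal dashes joined by lines are group means, WT is blue and KO is red. Chd5 ends at 256 to 262 CPM in all 4 libraries of day 26, after days 20 and 22 at which some KO libraries lie far above the others.

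*Phf7*, a reader of histone methylation that also ubiquitinates histone H2A in spermatids, lies at chr14:31237689-31251317, minus strand. Its level at day 20 was 831, 458, 594 and 679 CPM in WT and 863, 782, 706 and 749 CPM in KO. At day 22 it was 1084, 874, 978 and 968 CPM in WT and 1062, 1282, 919.7 and 1149 CPM in KO, and at day 24 it was 1217 and 1097 CPM in WT and 1153 and 1178 CPM in KO. The genotypes overlapped at each of these days. At day 26 the level was 1395 and 1624 CPM in WT and 1735 and 1811 CPM in KO. All day 26 libraries were above all day 20 libraries, and at day 26 both KO libraries were above both WT libraries. The rise was 1.24 ± 0.17 (log2, SE, edgeR adjusted p = 4.37e-06) in WT and 1.19 ± 0.17 (adjusted p = 1.16e-05) in KO. Without WT_d20_2, which was the lowest, the WT value was 1.07 (adjusted p = 6.37e-06). The KO minus WT difference at day 26 was 0.23 ± 0.20 (adjusted p = 0.691). Per kilobase of exon *Phf7* had the highest level of the 10 genes in WT at day 20, at 121 CPM per kilobase, and at day 26, at 286 CPM per kilobase.

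The proteasome genes went separate ways. *Psme4* encodes PA200, the activator that directs proteasomes to acetylated histones, and lies at chr11:30771726-30880361, plus strand. Its level at day 20 was 386, 376, 321 and 374 CPM in WT and 386, 419.9, 426 and 476 CPM in KO. The 4 WT libraries of day 22 held 473 to 581 CPM and the KO libraries 481 to 624 CPM. At day 24 both WT libraries (723 and 650.0 CPM) were above both KO libraries (644 and 609 CPM), and the difference was -0.13 ± 0.15 (edgeR adjusted p = 1.0). At day 26 the level was 863 and 954 CPM in WT and 893 and 859 CPM in KO. The days did not overlap in either genotype, whereas the genotypes overlapped at both days. It rose by 1.32 ± 0.12 (log2, SE, edgeR adjusted p = 8.84e-08) in WT, or 2.49-fold, and by 1.04 ± 0.12 (adjusted p = 2.11e-06) in KO, or 2.05-fold. *Psme3*, which encodes another proteasome activator, did not pass in either genotype (-0.06 ± 0.18 and 0.20 ± 0.18). Per kilobase, the ratio of *Psme4* to *Psme3* was 1.18 ± 0.34 (SD, n = 4) in WT at day 20 and 2.92 ± 0.22 (n = 2) at day 26.

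*Psma8* encodes the testis form of the core subunit that *Psma7* encodes elsewhere, and lies at chr18:14706151-14762301, plus strand. In WT its level was 221 to 416 CPM at day 20 and 243 to 262 CPM at day 26, and the highest value was that of WT_d20_2. In KO it was 261 to 359 CPM at day 20 and 231 to 243 CPM at day 26. The days overlapped in WT and not in KO. The log2 fold change over the wave was -0.23 ± 0.18 in WT (edgeR adjusted p = 0.336) and -0.38 ± 0.19 in KO (adjusted p = 0.0898). Without WT_d20_2 the WT value was -0.055 (adjusted p = 0.761). In KO *Psma8* passed in some alternative fits, at -0.38 (adjusted p = 0.0165) without WT_d20_2 and at -0.53 (adjusted p = 0.0192) with upper quartile scaling. With the replicate block it also passed, at -0.52 (adjusted p = 0.0113). *Psma7* fell by 0.74 ± 0.25 (log2, adjusted p = 0.0223) in WT and by 0.96 ± 0.26 (adjusted p = 0.00388) in KO. Per kilobase of exon, *Psma8* was 5.08 ± 0.91 (SD, n = 4) times as high as *Psma7* in WT at day 20 and 7.24 ± 1.0 (n = 2) times at day 26. In KO these ratios were 5.52 ± 0.62 and 8.09 ± 0.69.

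Of the ubiquitin ligases, *Rnf168*, at chr16:32277459-32301434 on the plus strand, rose slightly. Its level at day 20 was 59.8, 70.8, 45.4 and 51.8 CPM in WT and 54.0, 60.3, 47.9 and 50.5 CPM in KO. At day 26 it was 70.6 and 80.1 CPM in WT and 68.4 and 65.3 CPM in KO. The days overlapped in WT, by the library WT_d20_2, and not in KO. The rise was 0.41 ± 0.13 (log2, SE, edgeR adjusted p = 0.0191) in WT and 0.33 ± 0.13 (adjusted p = 0.0444) in KO. Both calls were lost with upper quartile scaling (0.25, adjusted p = 0.127, and 0.18, adjusted p = 0.242), and the KO call was lost in 12 of 24 fits that each left out 1 library, those without KO_d20 replicates 1, 3 or 4 and without either KO_d26 replicate among them. With the replicate block the KO call was also lost (0.23, edgeR adjusted p = 0.0900). The WT call was lost without WT_d20 replicate 3 or 4 or WT_d26 replicate 2, with an adjusted p of up to 0.198.

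*Rnf8*, at chr17:29614790-29644991 on the plus strand, had only 41 to 92 counts in a library. In WT its level was 6.68, 7.06, 5.32 and 4.25 CPM at day 20, and 2.55 and 3.37 CPM at day 26. In KO it was 4.86, 4.32, 5.61 and 3.79 CPM at day 20, and 3.92 and 4.19 CPM at day 26. The days were apart in WT and overlapped in KO. Between them the WT libraries held 2.54 to 4.26 CPM and the KO libraries 3.52 to 4.83 CPM. It fell by 0.97 ± 0.23 (log2, SE, edgeR adjusted p = 0.00201) in WT, while the KO difference was -0.19 ± 0.22 (adjusted p = 0.479). The WT call was lost without WT_d26 replicate 1 (-0.79, adjusted p = 0.0549). For *Rnf8* the joint edgeR test for a KO effect that varies from day to day did not pass (adjusted p = 0.555 over all genes), so the courses in WT and KO are not shown to differ. Its counts are uncertain, because the GENCODE M21 model *Gm28043* shares 1542 exon bases with it on the same strand. If that model was among those used, pairs lying wholly within the shared bases were counted for neither gene.

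*Mdc1*, at chr17:35841515-35859670 on the plus strand, stayed between 288 and 808 CPM in all 24 libraries, the lowest being WT_d20_2 and the highest KO_d22_4. Its log2 fold change over the wave was -0.09 ± 0.24 in WT (edgeR adjusted p = 0.782) and 0.20 ± 0.23 in KO (adjusted p = 0.487). Without WT_d20_2 the WT value was -0.34 (adjusted p = 0.113).

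*Ubr2* and *Ube2b* encode a ligase and a ubiquitin-conjugating enzyme that work together in ubiquitination of histones in spermatocytes. *Ubr2* lies at chr17:46928295-47010556, minus strand. Its level at day 20 was 105, 94.9, 102 and 112 CPM in WT and 86.8, 98.9, 94.6 and 95.2 CPM in KO. At day 22 the libraries of both genotypes lay between 73.6 and 89.8 CPM. At day 24 the level was 79.2 and 78.0 CPM in WT and 72.4 and 73.5 CPM in KO, and at day 26 it was 67.3 and 66.1 CPM in WT and 61.3 and 59.7 CPM in KO. Both late days had KO below WT in each library, by -0.11 ± 0.12 and -0.14 ± 0.12 (edgeR adjusted p = 1.0 and 0.679). It fell by 0.63 ± 0.10 (log2, SE) in each genotype, with an edgeR adjusted p of 4.41e-05 in WT and 5.28e-05 in KO, and the days did not overlap in either. The related ligase *Ubr1* did not pass (-0.33 ± 0.14, adjusted p = 0.0683, in WT and -0.22 ± 0.14, adjusted p = 0.207, in KO).

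*Ube2b*, at chr11:51985497-52000762 on the minus strand, had 132, 233, 135 and 138 CPM in WT and 207, 203, 147 and 151 CPM in KO at day 20. At day 26 it had 169 and 166 CPM in WT and 157 and 170.1 CPM in KO. The library WT_d20_2 alone stood above the others of its group. The log2 fold change over the wave was 0.07 ± 0.20 in WT (edgeR adjusted p = 0.789) and -0.12 ± 0.20 in KO (adjusted p = 0.648). Per kilobase of exon, *Ube2b* was 15.9 ± 4.9 (SD, n = 4) times as high as its near-identical X-linked relative *Ube2a* in WT at day 20, with a range of 11.9 to 22.9, and 11.9 ± 1.1 (n = 2) times at day 26. In KO these ratios were 17.2 ± 4.0 and 15.8 ± 1.7. *Ube2a* rose by 0.49 ± 0.15 (adjusted p = 0.0134) in WT and had -0.01 ± 0.15 (adjusted p = 0.972) in KO. The genes resemble each other in coding sequence, and pairs aligned to several places were not counted, so their ratio is uncertain.

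**Figure D2:**
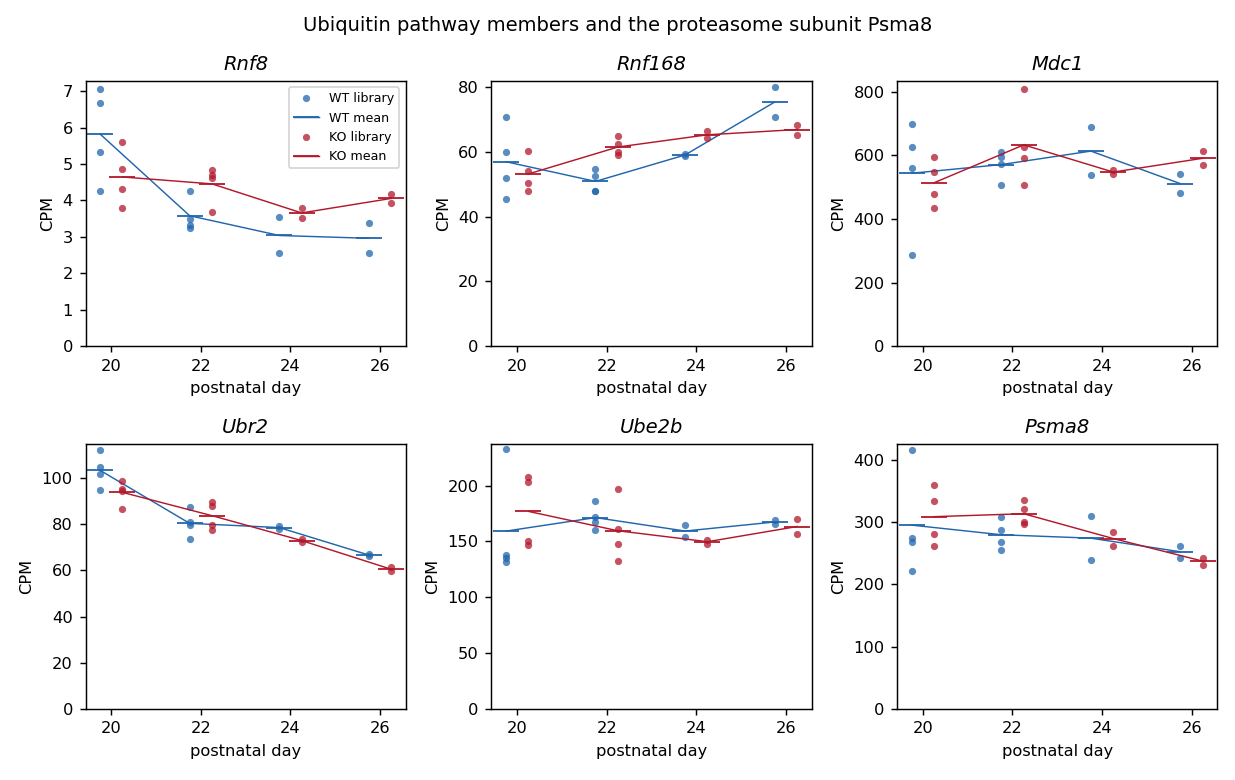
Levels of Rnf8, Rnf168, Mdc1, Ubr2, Ube2b and Psma8 in CPM against postnatal day, each panel with its own axis from 0. Points are single libraries, horizontal dashes joined by lines are group means, WT is blue and KO is red. Ubr2 descends in both genotypes to 59.7 to 67.3 CPM at day 26, and the outlying WT library of day 20 in Mdc1, Psma8 and Ube2b is WT_d20_2.

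KO and WT were then compared at each day, to ask whether loss of ATAD2 went with other levels of these genes. At day 20 none of the 10 genes passed the edgeR test, where 3.34% of all genes did. An unadjusted p under 0.05 was reached by 2 of them, *Chd5* and *Psme4*, and by 12.5% of all genes. *Chd5* was higher in KO by 1.25 ± 0.46 (log2, SE, adjusted p = 0.197), and with DESeq2 it was the 1 gene of the set that passed (1.27, adjusted p = 0.0432). DESeq2 called 901 of 17170 genes at this day. Leaving out 1 library gave *Chd5* values from 0.79 (without KO_d20 replicate 4) to 1.53 (without KO_d20 replicate 2), with edgeR adjusted p from 0.0450 to 0.638, and of these fits it passed only without KO_d20 replicate 2. *Psme4* was at 0.23 ± 0.10 (adjusted p = 0.359). In none of the 10 did the libraries of the genotypes separate, as they did in 4.71% of all genes. *Rnf8* had the lowest value, -0.32 ± 0.18 (adjusted p = 0.522).

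At day 22, *Tssk6* passed, 5.01-fold higher in KO with a log2 fold change of 2.32 ± 0.59 (SE, edgeR adjusted p = 0.0417), where 2.51% of all genes passed, 1.26% higher. DESeq2 also called 1 of the 10, and 749 of 17170 genes. An unadjusted p under 0.05 was reached by 3 of the 10, *Tssk6*, *Chd5* and *Rnf168*, and by 14.6% of all genes. The *Tssk6* call lies near the threshold. It was lost without the filter (2.37, adjusted p = 0.0533), with the replicate block (2.002, adjusted p = 0.0750) and with day 22 fitted alone (2.34, adjusted p = 0.163). It was also lost in 13 of the 24 fits that left out 1 library, where the adjusted p ran from 0.00776 to 0.253. All 4 WT libraries of the day and the KO libraries 2 and 3 were among the 13. Without KO_d22_2 the value was 1.43 (adjusted p = 0.253), the lowest of these fits. *Tssk6* and *Rnf168* were the 2 genes whose genotypes did not overlap, beside 8.09% of all genes. *Rnf168* was 48.0 to 54.8 CPM in WT and 59.0 to 64.7 CPM in KO, a difference of 0.27 ± 0.11 (edgeR adjusted p = 0.227). *Chd5* was at 1.16 ± 0.43 (adjusted p = 0.184), and at 0.67 (adjusted p = 0.638) without KO_d22_2.

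At day 24 none of the 10 passed in edgeR, beside 0.0874% of all genes, nor in DESeq2, which called 40 of 17170 genes. An unadjusted p under 0.05 was reached in edgeR by 1 of the 10 and by 5.23% of all genes. That gene was *Tssk6*, at 1.78 ± 0.62 (adjusted p = 0.589). At day 26 none passed in edgeR, beside 0.0466% of all genes, and none had an unadjusted p under 0.05, beside 11.5% of all genes. DESeq2 called none of the 10 and 153 of 17170 genes, and edgeR fitted to day 26 alone called none of the 10 and 2104 of 16465 genes. The widest differences at day 26 were those of *Rnf8* (0.46 ± 0.26, edgeR adjusted p = 0.519) and *Tssk6* (0.45 ± 0.57, adjusted p = 0.808), and *Chd5* was at 0.02 ± 0.59. Leaving out 1 library moved *Tssk6* between 0.09 (without WT_d26 replicate 2) and 0.93 (without WT_d26 replicate 1), and *Rnf8* between 0.28 (without WT_d26 replicate 1) and 0.67 (without WT_d26 replicate 2). With 2 libraries per genotype, ranges did not overlap for 5 of the 10 genes at day 24 and 6 at day 26. The shares of all genes were 44.0% and 59.0%, so these counts were close to the background.

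**Figure D3:**
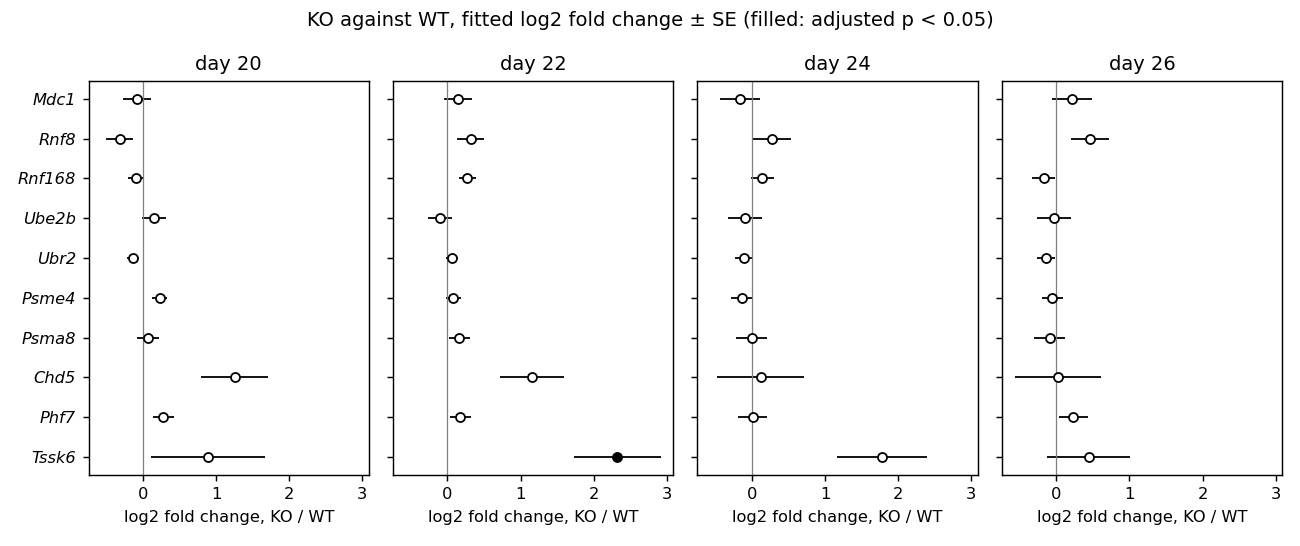
Fitted log2 fold change of KO over WT for each gene at each day (points) with its standard error (bars), and a filled point where the edgeR adjusted p is under 0.05. The only filled point is Tssk6 at day 22, at 2.32, and the values of Chd5 fall from 1.25 at day 20 to 0.02 at day 26.

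Over the unweighted mean of the 4 daily differences, *Tssk6* passed, at 1.36 ± 0.32 (log2, SE, edgeR adjusted p = 0.0205), 2.57-fold higher in KO, where 7.08% of all genes passed and 3.52% were higher. Its level in KO exceeded that of WT in the group mean of each of the 4 days. At day 20 this rested largely on KO_d20 replicate 4, without which the fitted difference fell from 0.89 to 0.20. The call was lost without KO_d24 replicate 1 (1.22, adjusted p = 0.0549). *Chd5* was at 0.64 ± 0.26 (adjusted p = 0.147). These 2 of the 10 had an unadjusted p under 0.05, beside 23.2% of all genes. The other 8 genes lay between -0.08 and 0.18, with standard errors of 0.05 to 0.12. The joint test of a KO effect that differs between days passed for none of the 10 genes in edgeR, beside 0.00582% of all genes, and none had an unadjusted p under 0.05, beside 9.06% of all genes. DESeq2 also called none of the 10, where it called 262 of 17170 genes.

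The levels of *Chd5* and *Tssk6* were set beside the stage score of each library. Within KO at day 20, the stage score was -2.86 in replicate 2, -1.57 in replicate 1, -0.27 in replicate 3 and 0.39 in replicate 4, the same order as the level of *Chd5*. *Tssk6* did not follow that order at day 20, with 0.523, 0.290, 0.330 and 1.35 CPM in these libraries. Within KO at day 22 it was 0.09 in replicate 1, 0.15 in replicate 4, 1.10 in replicate 3 and 1.70 in replicate 2, the same order as the levels of *Chd5* and *Tssk6*. All 4 KO libraries of day 22 had a higher score than any WT library of that day (-0.45 to -0.05). *Chd5* in WT at day 20 was out of order, its lowest level being in WT_d20_2, whose score of -3.59 was above those of replicates 1 and 3. At day 24 the mean scores of the genotypes were 1.79 and 1.80, while *Tssk6* was fitted 3.43-fold higher in KO. Within WT day 24, KO day 24 and WT day 26 the library with the lower score had the higher *Tssk6* level. Within KO day 26 it was the other way, with 36.1 CPM at a score of 2.138 and 46.1 CPM at 2.151. The summed level of the 6 round spermatid markers was 3.01 to 8.21 CPM in WT and 7.72 to 75.6 CPM in KO at day 20, and 48.5 to 68.5 CPM and 71.3 to 248 CPM at day 22. The ranges overlapped at day 24 (204 to 292 CPM and 239 to 247 CPM) and at day 26 (390.2 to 438 CPM and 404 to 434 CPM). In the edgeR test 6 of these 6 markers were higher in KO at day 20, 0 at days 22, 24 and 26, and 5 for the 4-day mean. An unadjusted p under 0.05 was reached by 6 at day 22 and by 0 at days 24 and 26. DESeq2 called 6 at day 20, 1 at day 22, 0 at days 24 and 26 and 6 for the mean.

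Of the 7 elongating spermatid markers, 3 were higher in KO in the edgeR test at day 20, 4 at day 22, none at days 24 and 26, and 6 for the 4-day mean. At an unadjusted p under 0.05 were 2 of them at day 24 and 0 at day 26. DESeq2 called 3 at day 20, none at any later day and 3 for the mean. Their summed level was 1.16 to 7.85 CPM in WT and 4.58 to 94.0 CPM in KO at day 20, and 32.9 to 87.1 CPM and 73.9 to 548 CPM at day 22, so the genotypes overlapped at both days. At day 24, where the stage scores of the genotypes were alike, it was 400.0 to 482 CPM in WT and 708 to 1463 CPM in KO, and at day 26 it was 1724 to 2793 CPM and 2945 to 3001 CPM. These ranges do not overlap, as was the case for 44.0% and 59.0% of all genes at these days. *Tnp1*, which encodes transition protein 1, had 1.13, 0.334, 0.757 and 0.358 CPM in WT and 1.09, 40.3, 15.9 and 0.872 CPM in KO at day 22. Its 2 high libraries were those that were high in *Tssk6*. With the stage score as a covariate, the *Tssk6* difference at day 22 was 1.22 (edgeR adjusted p = 0.510), its difference at day 24 was 1.75 (adjusted p = 0.147), and its mean over the days was 0.56 (adjusted p = 0.522). The *Chd5* difference became -0.94 (adjusted p = 0.584) at day 20 and -0.09 (adjusted p = 0.862) over the days. Somatic markers also differed between the genotypes. Over the 4-day mean, all 5 peritubular markers were fitted lower in KO (median log2 fold change -0.45), 2 of them past the edgeR threshold, as were all 3 endothelial markers (median -0.54), again 2 past it. The 6 Leydig cell markers had medians of 0.92 at day 20, 0.96 at day 24 and -0.59 at day 26, none of them past the threshold at a single day and 1 higher for the 4-day mean. The part of these cell types in the differences of the 10 genes was not tested. The stage score was measured in the same libraries and differs between the genotypes, so it and the genotype cannot be told apart fully in this fit.

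**Figure D4:**
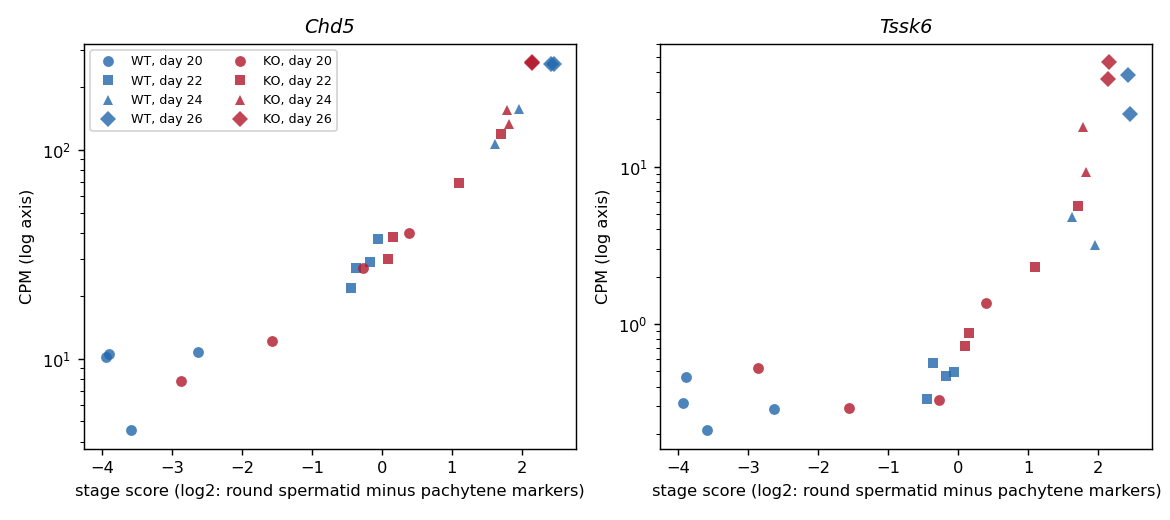
Level of Chd5 and Tssk6 in CPM (log axes) in each of the 24 libraries against the stage score, the mean log2 level of round spermatid markers minus that of pachytene markers. Colour gives the genotype and shape the day. KO libraries of days 20 and 22 with a higher score, up to 1.70, also have the higher Chd5 level, up to 119 CPM.

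The relatives and partners of the genes were examined as fixed lists. Among 13 genes related to *Ubr2* and *Tssk6*, 4 were higher in KO at day 20 in the edgeR test, *Tssk1*, *Tssk2*, *Tssk4* and *Tssk5*, and 4 for the 4-day mean, beside 3.34% and 7.08% of all genes called in either direction. None passed at days 22, 24 and 26, where 6, 0 and 0 had an unadjusted p under 0.05 and DESeq2 called 1, 0 and 0. The 4 that passed for the mean were *Tssk2* (1.48 ± 0.37, adjusted p = 0.0267), *Tssk5* (1.18 ± 0.34, adjusted p = 0.0398), *Tssk4* (1.02 ± 0.28, adjusted p = 0.0374) and *Tssk3* (0.97 ± 0.28, adjusted p = 0.0444). These are spermatid kinases of the family of *Tssk6*, and no UBR ligase was among them. The median log2 fold change of the list was 0.10 for the 4-day mean. *Tssk2* at day 22 had 13.9, 6.52, 8.74 and 6.75 CPM in WT and 12.0, 61.4, 32.4 and 15.8 CPM in KO, with the same 2 KO libraries high as for *Tssk6*. Over the wave 10 of the 13 passed in each genotype, 8 higher and 2 lower, beside 42.5% of all genes in WT and 52.2% in KO. In WT *Tssk3* rose by 6.81 ± 0.62 and *Tssk1* by 5.58 ± 0.55 on the log2 scale.

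Of 29 genes of chromatin ubiquitin signalling, none passed between KO and WT at any day in edgeR. From 1 (days 22 and 24) to 4 (day 20) of them had an unadjusted p under 0.05, and DESeq2 called 1 at day 20 and none at the other days. For the 4-day mean edgeR called 0, 3 had an unadjusted p under 0.05 and DESeq2 called 1. Over the wave 17 of the 29 passed in WT, 7 higher and 10 lower, beside 42.5% of all genes. *Ube2n*, the conjugating enzyme that works with RNF8, rose by 0.99 ± 0.12 (log2, adjusted p = 9.77e-07), and *Usp7*, a deubiquitinase, rose by 0.67 ± 0.12. *Uimc1*, which encodes the ubiquitin reader RAP80, fell by 1.05 ± 0.18, and *Huwe1*, a large ubiquitin ligase, fell by 0.64 ± 0.11. All 4 passed in the same direction in KO, where 18 of the 29 passed, 8 higher and 10 lower, beside 52.2% of all genes.

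Of 20 genes of proteasome activators and core subunits, none passed between KO and WT at any day in edgeR or DESeq2, and at most 1 a day had an unadjusted p under 0.05. For the 4-day mean edgeR also called none, 3 had an unadjusted p under 0.05 and DESeq2 called 2. Over the wave 5 of the 20 passed in WT, 2 higher and 3 lower, beside 42.5% of all genes, and the median was -0.26 beside -0.04. *Psmf1*, an inhibitor of proteasome activation, rose by 1.25 ± 0.19 (log2, adjusted p = 1.91e-05) and *Psma6* rose by 0.88 ± 0.14. *Psme1*, an activator subunit of the immune proteasome, fell by 0.63 ± 0.19 in WT. In KO 7 of the 20 passed over the wave, 3 higher and 4 lower, beside 52.2% of all genes.

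Of 22 remodellers and acetylation factors, 1 passed at day 20, a share near the 3.34% of all genes. It was *Nutm1*, which encodes the testis protein NUT that drives histone acetylation, at 1.27 ± 0.29 (log2, edgeR adjusted p = 0.0166), higher in KO. None passed at the other days or for the 4-day mean in edgeR or DESeq2, where 0 (day 22) or 1 (days 24 and 26 and the mean) had an unadjusted p under 0.05. Over the wave 9 of the 22 passed in WT, 4 higher and 5 lower, a share near the 42.5% of all genes. *Nutm1* rose by 3.39 ± 0.33, while *Chd6* fell by 0.97 ± 0.11, *Chd1* by 0.64 ± 0.14 and *Chd8* by 0.46 ± 0.11. In KO 10 of the 22 passed over the wave, 6 higher and 4 lower, beside 52.2% of all genes.

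Over the 8 group means, *Tssk6* ran from 0.319 CPM in WT at day 20 to 41.1 CPM in KO at day 26, and *Chd5* from 8.98 to 261 CPM between the same groups. In the order of their means, *Tssk6* separated between WT day 24 (3.96 CPM), KO day 24 (13.6 CPM) and WT day 26 (30.1 CPM), and all its lower groups overlapped their next neighbour. *Chd5* separated between KO day 24 (144 CPM) and WT day 26 (257 CPM), and the 2 groups of day 26 were also apart, by 257 against 261 CPM. Per kilobase of exon, *Tssk6* was the lowest of the 10 in WT at day 20 (0.239 CPM per kilobase) and *Rnf8* at day 26 (0.253 CPM per kilobase). *Psme4* moved from the fifth place to the second, at 43.5 and 108 CPM per kilobase.

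The gene with the most similar course was sought for each by the root mean square difference of centred log2 CPM over the 8 group means. For *Chd5* it was *Creb3l4*, at 0.083, where the median gene was at 1.74. For *Tssk6* it was 4930544D05Rik at 0.147 (median gene 2.46), for *Phf7* *Igf2bp3* at 0.038, and for *Psme4* *Zfp217* at 0.054. *Ubr2* ran closest to *Kif4*, at 0.016, the smallest of these differences, and *Psma8* to *Fbxo3*, at 0.022. The nearest to *Rnf168* was *Haus5* (0.043), to *Rnf8* *Atp6v0c* (0.083), to *Mdc1* *Pagr1a* (0.040) and to *Ube2b* *March7* (0.034). The whole courses of *Mdc1*, *Ube2b*, *Psma8* and *Rnf168* varied by only 0.11, 0.07, 0.12 and 0.17 about their means. The median gene lay at 0.29, 0.26, 0.26 and 0.32 from them, so a small difference says little for these genes.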

How the data were processed

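Read pairs of strand-specific, ribosome-depleted total RNA libraries from mouse testis were aligned by the authors to mm10 with STAR 2.7.11b. They were counted per gene with HTSeq, using the strand and pairs with 1 alignment that lay wholly within the exons of 1 gene. The deposited values are raw counts, 1 table per library, neither normalized nor pooled. The version of the gene models is not given in the sources used here. Pairs that did not lie wholly within exons on the strand of a gene took 45.1% to 58.5% of a table. No tally of this kind entered a library size or a test. Counts ran from 10709667 to 19491935 per library. All pairs of libraries within a group differed by more than sampling noise, with a chi-square per degree of freedom of 5.1 to 129, so tests rest on the spread between libraries. At day 20 the labels name more replicates than the study's methods do, and all of them were used.

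A quasi-likelihood model (edgeR 4.0.16, R 4.3.3, TMM scaling, filterByExpr at its minimum count of 10, robust, two-sided) was fitted to all 24 libraries and 8 groups. Benjamini-Hochberg adjustment was over 17170 genes, and an adjusted p under 0.05 is called. The study calls its samples biological replicates. Log2 levels used a prior count of 2. Alternatives were size factors by relative log expression, upper quartile scaling, no filter, DESeq2 1.42.0, each library left out, a replicate block, each day alone, and the stage score as covariate. The replicate block was by day and replicate number for KO against WT, and by replicate number alone for the wave. Genes were placed by symbol with GENCODE M21. Named beside the 10 genes are fixed relatives, transition proteins, the nearest course, and up to 4 genes of each list with the lowest p over the mean of the days and over the wave in WT. The genes called at day 20 in these lists were named after their values were seen. Members, lists and tests were chosen with earlier results of these data known. The fit was tested on simulated data for the day 20 comparison only, with the same spread for all genes and no differences between days. That run does not cover the later days.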

Additional observations from a re-analysis of the deposited data

Results flagged for a closer look

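Single libraries stood far from the other 3 of their group for 4 of the genes. The measure is the gap of the most extreme library to its nearest neighbour as a share of the range of the group, and it was computed in 40 groups of 4 libraries, of which chance alone marks about 1 in 20. *Chd5* in WT at day 20 had its lowest value in WT_d20_2, with a share of 0.9345. *Ube2b* in WT at day 20 had its highest value in the same library, with 0.9253. *Psme4* in WT at day 20 had its lowest value in WT_d20_3, with 0.8293. *Rnf8* in KO at day 22 had its lowest value in KO_d22_1, with 0.8315.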

How the results depend on the processing

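The rise of *Tssk6*, *Chd5*, *Phf7* and *Psme4* and the fall of *Ubr2* from day 20 to day 26 passed in both genotypes under every alternative that gave a value. Upper quartile scaling moved the median of all genes to -0.20 (WT) and -0.22 (KO) in these 2 comparisons, so values there are to be read relative to it. The count of genes passing at day 20 was 0 and became 1 with DESeq2. The count at day 22 was 1 and became 0 without the filter, with the stage score, with the replicate block, with each day fitted alone, and with WT_d20_2 and KO_d22_2 both left out, an alternative chosen after seeing the data. The count for the mean of the days was 1 and became 0 with the stage score. Leaving out 1 library gave counts of 0 to 1 at days 20 and 22 and for the mean. Over all genes, the number called ranged over the alternatives from 4 to 901 at day 20 (573 in the fit used), 60 to 858 at day 22 (431), 0 to 40 at day 24 (15), 0 to 2104 at day 26 (8), 234 to 1827 for the mean (1215) and 0 to 262 in the joint test (1). The causes were not tested.

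Directions turned as follows (log2), mostly for values near 0. With the stage score these were *Rnf168* (0.038), *Chd5* (-0.94) and *Tssk6* (-1.41) at day 20, *Ube2b* at day 22 (0.026), and *Mdc1* (-0.017), *Psme4* (-0.011), *Ube2b* (0.077) and *Chd5* (-0.089) over the mean of the days. With both libraries out they were *Rnf168* at day 20 (0.0075), *Psma8* at day 24 (0.0048), and *Mdc1* (-0.018) and *Ube2b* (0.043) over the mean. *Psma8* at day 24 also turned with upper quartile scaling (0.0061) and with each day alone (0.0047). *Ube2b* turned at day 26 with relative log expression factors and with DESeq2 (0.0137 in each), over the mean without the filter (0.00033), and over the wave in WT with upper quartile scaling (-0.091). Leaving out 1 library turned *Rnf168* at day 20 (-0.185 to 0.0074), *Mdc1* (-0.306 to 0.061) and *Psma8* (-0.046 to 0.26) at day 20, *Mdc1* (-0.315 to 0.026), *Psma8* (-0.16 to 0.20), *Chd5* (-0.11 to 0.43) and *Phf7* (-0.046 to 0.08965) at day 24, *Psme4* (-0.112 to 0.021) and *Ube2b* (-0.076 to 0.048) at day 26, *Mdc1* (-0.0197 to 0.076) and *Ube2b* (-0.048 to 0.045) over the mean, and *Mdc1* (-0.342 to 0.0176) and *Ube2b* (-0.038 to 0.269) over the wave in WT. None of these values passed the test.

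The numbers were not treated as pairs, since nothing in the labels ties them to a litter or day and not every correlation of same-numbered libraries was over 0.1. It ran from 0.07 to 0.41 at day 20, with 3 of 4 pairs above 0.2, from -0.46 to -0.03 at day 22, and was 0.39 and 0.42 at days 24 and 26, where a value rests on 2 pairs. Epididymis markers were high in the same number of both genotypes at days 20 (replicate 3), 24 and 26 (replicate 2), but not at day 22, so a shared source at the 3 days was not settled. With a block for each day and replicate number, *Tssk6* at day 22 was 2.002 (edgeR adjusted p = 0.0750) and *Psma8* at day 24 turned direction (0.0073). The fits over the wave took the replicate number as shared by all days, so they do not speak to pairs within a day. There *Rnf168* in KO was 0.23 (edgeR adjusted p = 0.0900) and *Psma8* in KO was -0.52 (adjusted p = 0.0113). In WT *Mdc1* (0.065) and *Ube2b* (-0.076) turned direction over the wave.

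Depth limits *Tssk6* before day 24 and *Rnf8* throughout, and days 24 and 26 have 2 libraries per genotype.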
